A study of Homo sapiens with 16 samples.

Results

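The genes described here encode 7 molecules through which tumour cells restrain immune cells: CD274, PDCD1LG2, CD276, NT5E, PVR, NECTIN2 and CD47. Peaks were assigned to them by position alone: a peak counted when its summit lay in the RefSeq gene body (GRCh38) or within 50 kb of it. By that rule 260 of the 399028 peaks in 10 lists lay at these 7 of 19974 protein-coding genes, and 98 of the 260 lay inside a gene body. CD274 and PDCD1LG2 adjoin on chromosome 9, and the 17 peaks in both windows were counted once.

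The data are chromatin immunoprecipitation and sequencing of A375, an established human melanoma cell line profiled in bulk. Cells of every group were starved of serum for 2 h and then received either recombinant human TGFB1 at 10 ng/mL or its vehicle, dilute HCl with bovine serum albumin, for 2 h. Each treatment was probed with antibodies to SMAD2/3, H3K27ac, MITF, ATF3 and JUNB, giving 10 libraries in 10 groups of 1, and 6 input samples were not analysed here. Technical triplicates are mentioned in the design text, yet only 1 library stands for each antibody and treatment, so none of the differences could be checked against replicates and none has a p-value. By the dates in the sample titles, SMAD2/3 went with H3K27ac, ATF3 went with JUNB, and MITF was done on a separate day. Both treatments of an antibody shared a date, whereas antibody and date cannot be told apart across those sets.

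Immune checkpoint ligands sit on the cell surface and engage receptors on T cells, natural killer cells or macrophages that dampen their activity. CD274 (PD-L1) and PDCD1LG2 (PD-L2) bind PD-1, and CD276 (B7-H3) is a further member of the B7 family. PVR (CD155) and NECTIN2 (CD112) are nectin-family ligands of TIGIT, CD47 binds SIRPA on phagocytes, and NT5E (CD73) is an ectoenzyme that makes adenosine from AMP outside the cell. TGFB1 acts through SMAD2 and SMAD3, which enter the nucleus and bind DNA with partner factors. ATF3 and JUNB belong to the AP-1 superfamily, MITF is the lineage factor of pigment cells, and H3K27ac marks active promoters and enhancers.

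The libraries of a pair were not always alike in depth, which bears on every count of peaks. Estimated from the peaks, vehicle depth ran from 6.37 M reads (ATF3) to 34.1 M (JUNB) and TGFB1 depth from 7.40 M (MITF) to 47.7 M (JUNB). The TGFB1 library was deeper than its vehicle partner by a ratio of 4.42 for ATF3 and 1.40 for JUNB, and by 1.00 to 1.09 for the others. The SMAD2/3 lists held 1247 and 11406 peaks, and their shortest peaks were 311 and 183 bp, so that the pair also differed in fragment extension. As a check of the cell type, 5 of 7 melanocyte-lineage markers (MITF, SOX10, PMEL, MLANA and S100B) carried H3K27ac within 1 kb of a gene end with TGFB1, and 4 of 7 did in vehicle. TYR and DCT had none, and of the leukocyte, epithelial, endothelial and fibroblast markers CD3E, KRT8 and PDGFRB had it, where 66.2% of all genes did with TGFB1. That check therefore did not set the melanocyte markers far from the average gene.

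RefSeq promoter windows (GRCh38.p14, from 250 bases before to 50 bases after a start site) were at hand for 6 of the 7 genes, with a pair of start sites for CD276 and no entry for PDCD1LG2. The windows of 4 genes are printed 5′ to 3′ because each lay at least partly under a factor peak of the TGFB1 library that vehicle lacked. NECTIN2 (chromosome 19, 44846047 to 44846346, plus strand) lay under an ATF3 peak, CD274 (chromosome 9, 5450292 to 5450591, plus strand) also under ATF3, and NT5E (chromosome 6, 85449833 to 85450132, plus strand) and the second CD276 start (chromosome 15, 73684520 to 73684819, plus strand) under JUNB. Capitals mark, in NECTIN2, the cAMP response element TGACGTCA, the palindrome that ATF-family dimers are known to bind, and in CD276 the short SMAD box CAGAC.
NECTIN2: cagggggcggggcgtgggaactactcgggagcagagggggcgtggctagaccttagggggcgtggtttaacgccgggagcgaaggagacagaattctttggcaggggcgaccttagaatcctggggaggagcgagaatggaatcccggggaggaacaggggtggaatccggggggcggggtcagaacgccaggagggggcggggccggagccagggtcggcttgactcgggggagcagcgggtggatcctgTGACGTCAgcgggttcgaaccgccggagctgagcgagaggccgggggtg
CD274: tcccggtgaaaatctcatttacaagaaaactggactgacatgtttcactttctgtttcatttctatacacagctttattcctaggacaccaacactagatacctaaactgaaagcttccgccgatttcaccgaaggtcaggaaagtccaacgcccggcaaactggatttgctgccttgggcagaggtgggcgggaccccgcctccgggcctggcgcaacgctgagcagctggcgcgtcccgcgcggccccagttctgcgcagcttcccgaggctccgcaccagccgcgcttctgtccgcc
NT5E: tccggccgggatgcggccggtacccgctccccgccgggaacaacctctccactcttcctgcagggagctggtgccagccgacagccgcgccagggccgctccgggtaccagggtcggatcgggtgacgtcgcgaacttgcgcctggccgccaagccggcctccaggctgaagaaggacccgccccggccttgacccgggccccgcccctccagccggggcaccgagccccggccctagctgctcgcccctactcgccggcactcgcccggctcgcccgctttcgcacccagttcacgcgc
CD276: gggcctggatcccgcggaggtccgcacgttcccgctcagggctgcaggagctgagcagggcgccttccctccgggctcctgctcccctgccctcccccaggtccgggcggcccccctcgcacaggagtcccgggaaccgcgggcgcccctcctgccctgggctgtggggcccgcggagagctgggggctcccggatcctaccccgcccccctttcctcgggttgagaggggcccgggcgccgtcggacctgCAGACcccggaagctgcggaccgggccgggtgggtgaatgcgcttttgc

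TGACGTCA stood in the NECTIN2 window alone among the 7 windows of these genes, 1 base after the start site (chromosome 19, 44846298 to 44846305), and in 1.85% of the 35116 windows of the RefSeq table. It lay inside an ATF3 peak of the TGFB1 library from 44846252 to 44846474, which had no vehicle counterpart. The summit of that peak, at 44846380 and outside the motif, had 32 reads. Divided by the ATF3 depth ratio of 4.42 they came to 7.25, below the vehicle list's median of 8. On chromosomes 1 to 22 and X, ATF3 of the TGFB1 library overlapped 50.8% of the 648 windows holding TGACGTCA and 9.83% of the 34313 without it, and in vehicle the shares were 20.7% and 3.20%. The difference was not particular to ATF3: JUNB overlapped 39.5% and 15.6% with TGFB1, and 13.9% and 6.5% in vehicle. The TGFB1 library was the deeper by a ratio of 4.42 for ATF3 and 1.40 for JUNB. The shares of the 2 treatments are therefore not directly comparable. The other motifs were searched as exact matches on both strands. The AP-1 site TGANTCA (7.71% of all windows), the paired SMAD site GTCTAGAC (0.202%) and the E-boxes CACGTG (7.26%) and CATGTG (11.1%) matched none of the 7 windows. The short SMAD box CAGAC, present in 45.3% of all windows, matched 3 of them, those of CD47, PVR and the second CD276 start. The CD276 match (73684771 to 73684775) lay outside the JUNB peak over that window (73684484 to 73684627). SMAD2/3 had no peak within 1 kb of a CD276 start in either treatment. A match is a string of letters and not a measured site, and no match says only that these letters are not in the window.

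SMAD2/3 was called at these genes with the ligand and not without it: no peak lay at any of the 7 in vehicle, and 11 lay at 6 of them with TGFB1. The 6 genes were CD274, CD276, NT5E, PVR, NECTIN2 and CD47, and PDCD1LG2 had none. Over all protein-coding genes, 3.85% had a SMAD2/3 peak in vehicle and 47.9% with TGFB1, and 46.9% had a TGFB1-only peak, meaning one that shared no base with a vehicle peak. All 11 were TGFB1-only, and 0 of 7 genes had a vehicle-only peak (0.841% of all genes). NT5E stood out among the members with 5 peaks, a number that 3.16% of all genes reached, followed by CD276 with 2 and 1 at each of the other 4. The NT5E window of 145.7 kb was not matched in length to those of all genes. Its peaks of 8 and 10 reads had a −log10 q of 2.52 and 1.85, under the stricter cut of 5. In a bulk chromatin preparation, binding in fewer cells and weaker binding in each cell cannot be told apart. When the TGFB1 list was cut to the 1247 strongest peaks, the length of the vehicle list, 0 of the 11 peaks were left, and with a window of 10 kb there were 6, at 3 genes. No share of all genes is given for the 10 kb window, so that count has no background beside it. The heat map of peak numbers sets these counts beside the other antibodies.

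**Figure D1:**
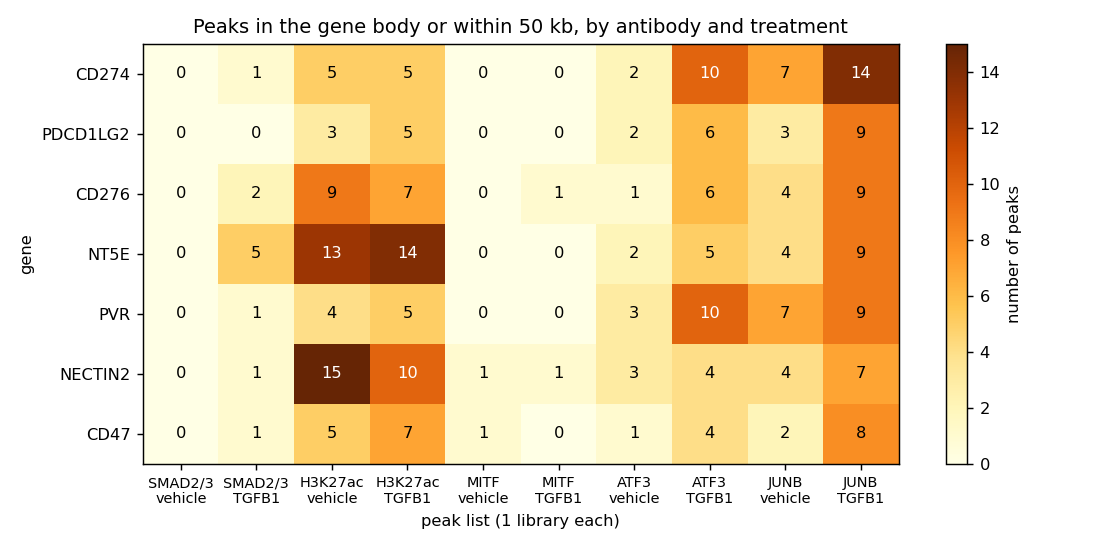
Number of peaks in the gene body or within 50 kb for each of the 7 genes (rows) in each of the 10 peak lists (columns, 1 library each); color gives the same number as the digit in the cell. The SMAD2/3 vehicle column is 0 throughout, the SMAD2/3 TGFB1 column runs from 0 at PDCD1LG2 to 5 at NT5E, and JUNB with TGFB1 holds 7 to 14 peaks at every gene.

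These 11 peaks ranged from the stronger to nearly the weakest of their own list, ranked by the authors' −log10 p. The strongest lay 50.0 kb upstream of CD276, nearest to NPTN (chromosome 15, 73634265 to 73634543), with 32 reads at the summit (exact Poisson 95% interval 21.9 to 45.2), a fold enrichment of 9.54 and rank 1370 of 11406. The next by rank was the PVR peak, 12.1 kb upstream of its start inside IGSF23 (chromosome 19, 44631721 to 44631964; 21 reads, 13.0 to 32.1; fold 10.8, rank 1853). The NT5E peak 14.3 kb inside the gene followed (chromosome 6, 85464253 to 85464556; 24 reads, 15.4 to 35.7; fold 8.20, rank 2417), and then the CD276 peak 12.5 kb inside that gene (chromosome 15, 73697161 to 73697371; 22 reads, 13.8 to 33.3; fold 7.60, rank 2922). The intervals of these 4 peaks all overlap, so their order in reads lies within counting error. The remaining 7 peaks had 8 to 18 reads. The 2 weakest by rank were both at NT5E, the peak 223 bp after its start site (10 reads, 4.80 to 18.4, rank 11144) and the one 45.0 kb upstream (8 reads, 3.45 to 15.8, rank 10711).

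**Figure D2:**
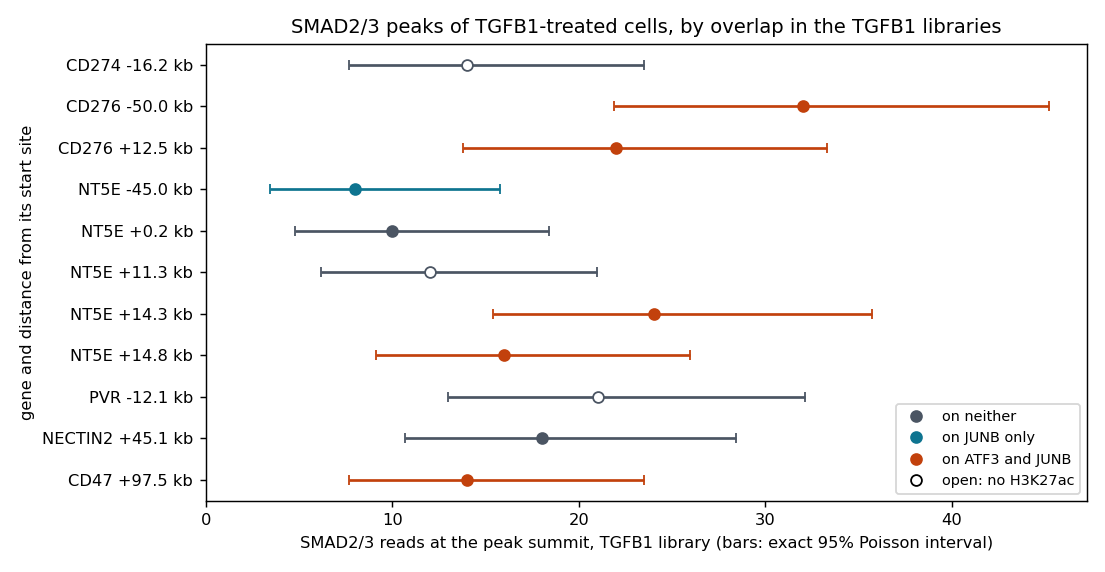
Reads at the summit of each of the 11 SMAD2/3 peaks in the TGFB1 library (x axis), by gene and distance in kb from the start site (y axis, nearest start for CD276); bars are exact 95% Poisson intervals for counting error. Colors give overlap with ATF3 and JUNB of the TGFB1 libraries, and open points lack H3K27ac; the 5 peaks on both factors reach 14 to 32 reads and the 3 open points 12 to 21.

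The SMAD2/3 peaks at these genes carried the other marks about as often as the whole SMAD2/3 list did. With TGFB1, 8 of 11 (72.7%, Wilson 95% interval 43.4 to 90.3%) overlapped H3K27ac, against 75.7% of the list. JUNB was at 6 of 11 (54.5%, 28.0 to 78.7%; list 62.0%), ATF3 at 5 of 11 (45.5%, 21.3 to 72.0%; list 45.9%) and MITF at 0 of 11 (upper bound 25.9%; list 11.9%). The list's share lies within the interval in all 4 cases. Under a reciprocal overlap of 50% the counts were 0 on H3K27ac and 2 on JUNB. By AP-1 factor, 5 peaks held both ATF3 and JUNB (42.3% of the list) and 1 held JUNB without ATF3 (19.7%). None held ATF3 without JUNB (3.57%). The 5 with both were the 2 at CD276, the NT5E peaks 14.3 and 14.8 kb inside the gene, and the peak 97.5 kb downstream of the CD47 start. The remaining 5 held neither factor (34.4% of the list). Of these, the NT5E start site peak and the NECTIN2 window's peak inside TOMM40 lay on H3K27ac of both treatments, and 3 overlapped none of the 4 other marks with TGFB1: those in the CD274 window (inside PLGRKT), 11.3 kb inside NT5E and in the PVR window. For the whole list that share was 9.68%.

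NT5E, the adenosine-producing ectoenzyme, was the gene with the most SMAD2/3 and the widest acetylated sequence. Of its 52 peaks, 1 was nearer to another protein-coding gene, compared with 118 of 260 over all 7 and 4 of 28 at PDCD1LG2. Which gene a peak acts on was not tested. SMAD2/3 peaks with TGFB1 lay 45.0 kb upstream, at the start site, and 11.3, 14.3 and 14.8 kb into the gene (chromosome 6, 85450083 to 85495784). The site 14.3 kb inside held the strongest JUNB peak of these genes. JUNB had 69 reads there in vehicle (53.7 to 87.3; fold 21.0, rank 645 of 38514) and 136 with TGFB1 (114 to 161; fold 38.7, rank 231 of 64407). The intervals do not overlap, but the JUNB libraries differed in depth by a ratio of 1.40 and had no replicate. ATF3 at that site had 7 reads in vehicle and 43 (31.1 to 57.9; fold 17.0) with TGFB1, at a depth ratio of 4.42. H3K27ac at the adjoining summit, 14.7 kb inside, had 76 reads in vehicle and 87 with TGFB1. So JUNB, ATF3 and H3K27ac were all listed at this site without the ligand, and SMAD2/3 with it.

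**Figure D3:**
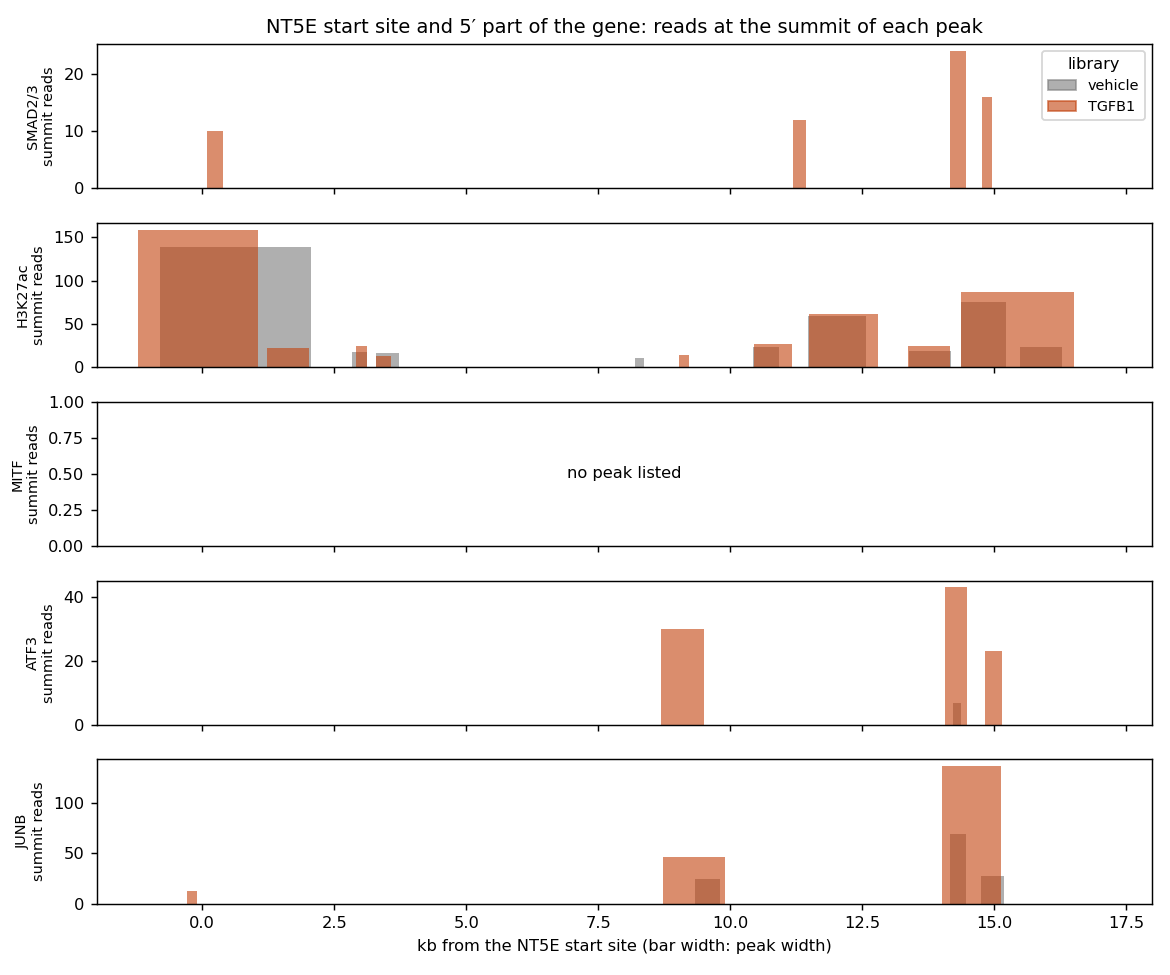
Reads at the summit of each peak around the start site and in the 5′ part of NT5E (y axis, own scale per antibody) against distance in kb from the NT5E start site (x axis), with bar width equal to peak width; grey is vehicle and orange TGFB1, 1 library each. In this stretch, which leaves out the upstream peak of 8 reads, SMAD2/3 bars of 10 to 24 reads appear in TGFB1 alone, the JUNB bar near 14.3 kb rises from 69 to 136 reads, and MITF has no peak.

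Further NT5E peaks lay at the start site, 9 to 10 kb inside the gene, or about 45 kb upstream. At the start site SMAD2/3 with TGFB1 had 10 reads and JUNB, also TGFB1-only, had 13 (6.92 to 22.2), on H3K27ac of 139 and 159 reads. NT5E was the 1 gene of the 7 with SMAD2/3 within 1 kb of a start site (for PDCD1LG2, of either gene end). Of 15812 genes, 12.9% had SMAD2/3 within 1 kb of a start site with TGFB1 and 0.563% in vehicle. A TGFB1-only ATF3 peak of 30 reads (chromosome 6, 85458780 to 85459582; fold 10.6) lay beside JUNB of 25 reads in vehicle and 46 with TGFB1, and a TGFB1-only H3K27ac peak of 14 reads (85459109 to 85459295) lay on the same stretch. Upstream, a broad acetylated block of both treatments (71 and 90 reads) held JUNB of 24 reads in vehicle and 69 with TGFB1 at 46.3 kb, and TGFB1-only JUNB peaks of 32 reads at 45.7 and 45.3 kb. H3K27ac covered 12.7 kb of the NT5E window in vehicle and 15.3 kb with TGFB1, in 13 and 14 peaks. Scattered beyond these groups were TGFB1-only JUNB peaks 31.8 kb (22 reads) and 12.7 kb (28 reads) upstream, a vehicle-only ATF3 peak 15.4 kb upstream (8 reads), and TGFB1-only ATF3 (17 reads) and JUNB (15 reads) 40.6 kb inside the gene. MITF had no peak at NT5E in either treatment.

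Acetylation of the start sites was present at all 7 genes in both treatments. H3K27ac lay within 1 kb of a start site (for PDCD1LG2, of a gene end) at 7 of 7 genes in vehicle and 7 of 7 with TGFB1, where 68.6% and 68.8% of genes did. The genes fell into 2 tiers. CD276 was highest, with 200 reads (173 to 230) in vehicle and 213 (185 to 244) with TGFB1. CD47 had 163 (139 to 190) and 193 (167 to 222). NECTIN2 had 142 (120 to 167) and 161 (137 to 188), and NT5E 139 (117 to 164) and 159 (135 to 186). PVR had 125 (104 to 149) and 165 (141 to 192). The PD-1 ligands were far lower: CD274 had 27 (17.8 to 39.3) and 30 (20.2 to 42.8), and PDCD1LG2 15 (8.40 to 24.7) and 29 (19.4 to 41.6).

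The TGFB1 read number was the higher at each of the 7 start sites, but the intervals of the 2 treatments overlapped at every one, and the TGFB1 library was the deeper by a ratio of 1.08. Neighbours within the upper tier overlapped as well, while CD274 and PDCD1LG2 lay below all 5 others in both treatments. The authors' fold enrichment, taken over the local background, did not follow the reads: it was lower with TGFB1 at CD276 (42.0 and 17.5), NECTIN2 (32.005 and 17.2) and CD274 (6.27 and 4.69) and higher at the 4 others. The ranks by −log10 p within each list show the same split into tiers: in vehicle CD276 was at 1054, NECTIN2 at 5043, CD47 at 5551, PVR at 6860 and NT5E at 8312 of 79172 peaks, while CD274 was at 35262 and PDCD1LG2 at 68942. With TGFB1, NT5E was at 3293, CD47 at 3328, PVR at 4493, CD276 at 4742 and NECTIN2 at 7845 of 80990, while PDCD1LG2 was at 33112 and CD274 at 43183.

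**Figure D4:**
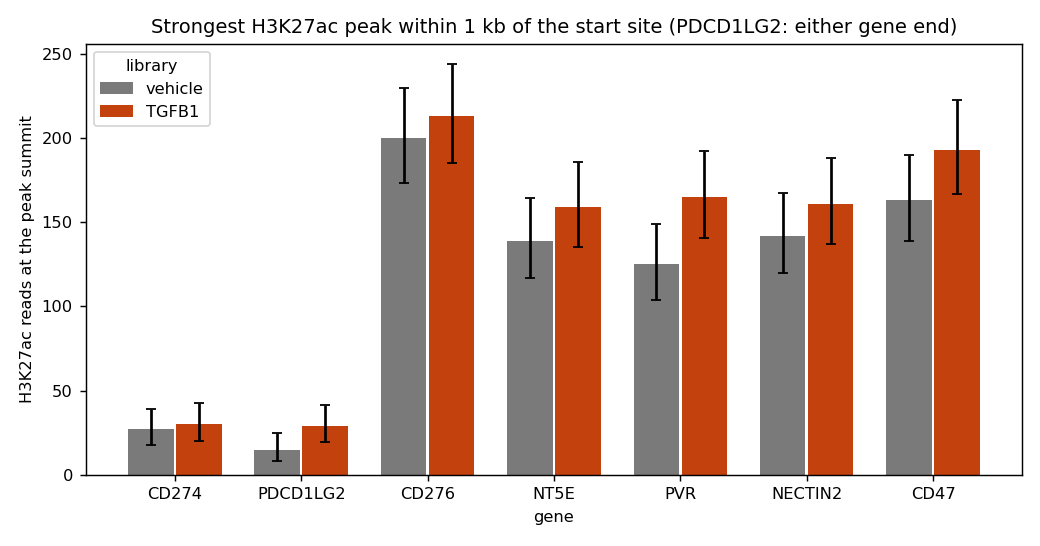
Reads at the summit of the strongest H3K27ac peak within 1 kb of the start site (for PDCD1LG2, either gene end) on the y axis, for the 7 genes on the x axis, vehicle in grey and TGFB1 in orange, 1 library each; error bars are exact 95% Poisson intervals for counting error. CD274 and PDCD1LG2 stay at 15 to 30 reads while the 5 others lie between 125 and 213, and the bars of the 2 treatments overlap within error at every gene.

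H3K27ac peaks were nearly equal in number between treatments. The 7 genes held 52 peaks in vehicle and 51 with TGFB1, and every gene had some in both (91.2% and 91.4% of all genes). Vehicle-only H3K27ac peaks numbered 9, at 4 of 7 genes (52.7% of all genes), and TGFB1-only peaks numbered 11, at 5 of 7 (55.4%). None of either class lay on SMAD2/3, and they were weak, with a median fold enrichment of 4.25 (2.42 to 5.44) in vehicle and 4.18 (2.89 to 6.89) with TGFB1. With a −log10 q of at least 5 they numbered 5 and 3, and under a reciprocal overlap of 50% 20 and 20. NECTIN2 had 15 peaks in vehicle and 10 with TGFB1, of which 5 were vehicle-only (11 to 18 reads) and 0 TGFB1-only. Its covered length went from 8.77 to 7.53 kb. At CD276 the number went from 9 to 7 while the covered length went from 6.02 to 7.05 kb, since peaks that were separate in vehicle were called as 1 with TGFB1.

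CD274 and PDCD1LG2, the ligands of PD-1, had weak promoter acetylation and many AP-1 peaks. The CD274 window (chromosome 9, 5450542 to 5470554, and 50 kb on each side) held 2 ATF3 peaks in vehicle and 10 with TGFB1, and 7 and 14 JUNB peaks. Of its 44 peaks over all lists, 33 were nearer to another gene, PLGRKT on one side or PDCD1LG2 on the other. Its strongest acetylation, of 175 reads in vehicle (150 to 203) and 182 with TGFB1 (157 to 210), also lay inside PLGRKT, 12.8 kb upstream of the CD274 start. At the CD274 start itself, ATF3 was TGFB1-only with 41 reads (29.4 to 55.6; fold 7.44; 5450387 to 5450611), and JUNB had 16 reads in vehicle and 22 with TGFB1. JUNB fold enrichment there was 3.01 in vehicle (rank 35366 of 38514) and 2.12 with TGFB1 (rank 63945 of 64407). A JUNB site 9.3 kb upstream, inside no H3K27ac peak, had 44 reads in vehicle (31.97 to 59.1) and 90 with TGFB1 (72.4 to 111), with TGFB1-only ATF3 of 33 reads beside it.

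The strongest AP-1 site of the PD-1 ligand locus lay at the lower end of PDCD1LG2, within 1 kb outside the gene body. JUNB had 45 reads there in vehicle (32.8 to 60.2; fold 9.07, rank 4690) and 113 with TGFB1 (93.1 to 136; fold 16.2, rank 1810; chromosome 9, 5509539 to 5510128). ATF3 was TGFB1-only with 75 reads (59.0 to 94.0; fold 16.1, rank 3589; 5509542 to 5509968). A second, smaller pair lay at the gene end itself, with 25 reads each for ATF3 and JUNB, both TGFB1-only. Inside the PDCD1LG2 body (5510531 to 5571282) no H3K27ac peak had its summit in either treatment, and its AP-1 peaks had at most 27 reads. PDCD1LG2 had neither SMAD2/3 nor MITF, and CD274 no MITF. The SMAD2/3 peak counted with CD274 had 14 reads (7.65 to 23.5; fold 4.51, rank 8740; 5434199 to 5434518) and overlapped no other mark.

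**Figure D5:**
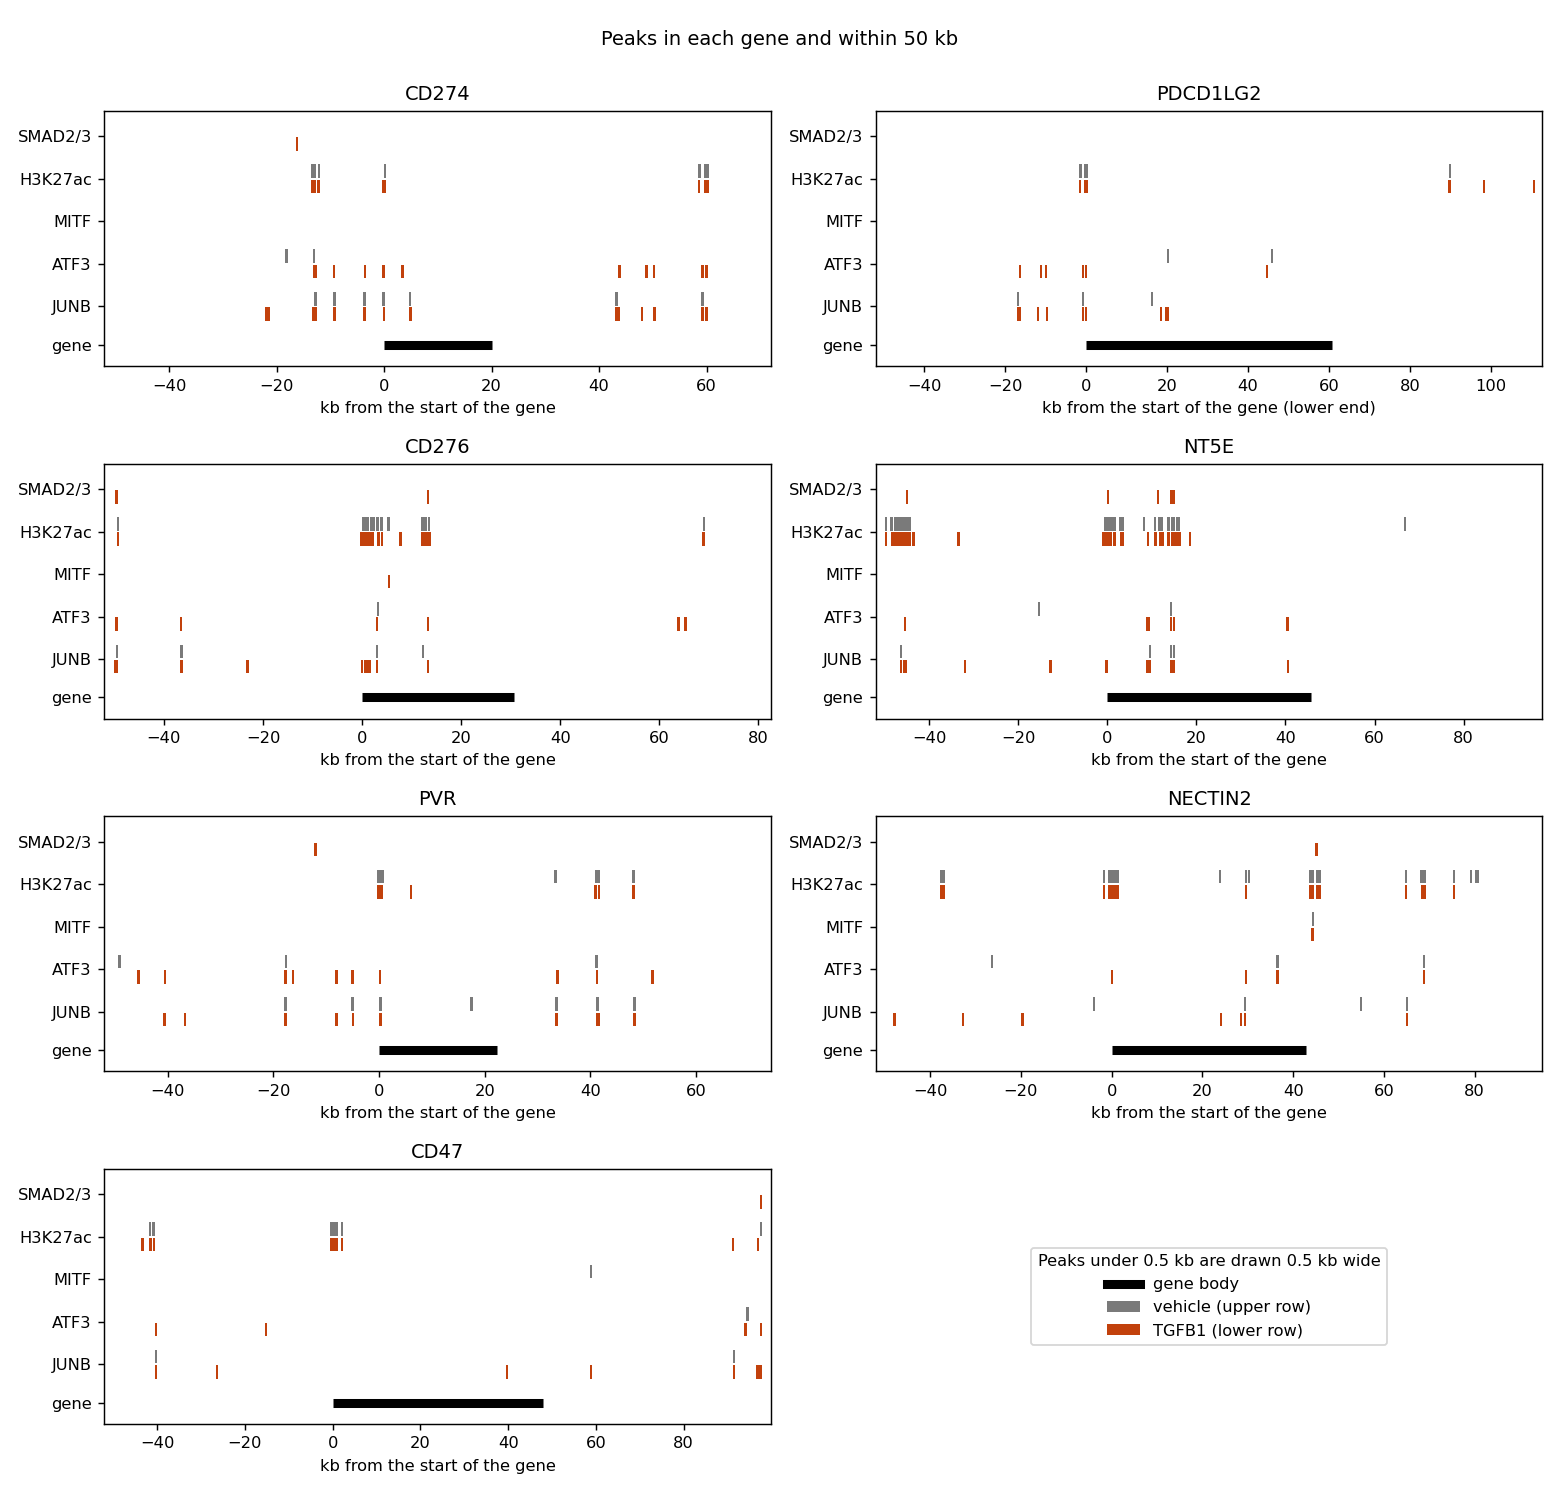
Peaks of the 10 lists at the 7 genes by distance in kb from the start of the gene (x axis; for CD276 and PDCD1LG2 the lower end of the annotated gene), with vehicle in the upper and TGFB1 in the lower row of each antibody and the gene body in black. Peaks under 0.5 kb are drawn 0.5 kb wide; the PVR and CD274 AP-1 peaks lie mostly outside the gene bodies, and those of NT5E and CD276 partly inside.

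CD276, the B7-family member with the strongest start site acetylation, held its SMAD2/3 at sites shared with ATF3, JUNB and H3K27ac of the TGFB1 libraries. At the site 12.5 kb inside the gene, SMAD2/3 (22 reads), ATF3 (27 reads, 73697122 to 73697365) and JUNB (59 reads, fold 9.61, 73697075 to 73697366) were all TGFB1-only, on H3K27ac that had 52 reads in vehicle and 69 with TGFB1 at a summit 12.1 kb inside. That JUNB peak had the most reads of the 36 TGFB1-only JUNB peaks at these genes. At the site 50.0 kb upstream, nearer to NPTN, JUNB was present in vehicle with 30 reads and had 66 with TGFB1, while ATF3 was TGFB1-only with 46 reads (fold 13.7). Around the start site itself 4 TGFB1-only JUNB peaks of 13 to 17 reads stood on acetylation of both treatments. The 1 MITF peak of the gene was TGFB1-only and small, with 9 reads (fold 5.06, rank 4255; 73689295 to 73689474), 4.6 kb inside the gene on a vehicle-only H3K27ac peak.

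PVR and NECTIN2, the nectin-family ligands on chromosome 19, differed in where their peaks lay. Of the 39 peaks in the PVR window, 32 were nearer to another gene (IGSF23, CEACAM19 or CEACAM16), and the strongest AP-1 peaks were among them. ATF3 with TGFB1 had 57 reads (43.2 to 73.9; fold 20.04) 40.5 kb upstream (44603217 to 44603529), the highest fold enrichment of the TGFB1-only ATF3 peaks, with a TGFB1-only JUNB peak of 16 reads beside it. At 33.6 kb downstream of the PVR start ATF3 was TGFB1-only with 47 reads (fold 15.6), on JUNB of 26 reads in vehicle and 50 with TGFB1. The PVR start site carried only small AP-1 peaks, JUNB of 11 reads in vehicle and 16 with TGFB1, and ATF3 of 10 reads with TGFB1.

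In the NECTIN2 window 27 of 46 peaks were nearer to another gene. Besides the ATF3 peak over the start site (fold 10.2, rank 12341), ATF3 was shared between treatments 36.5 kb inside the gene. It had 7 reads there in vehicle and 37 with TGFB1, at a depth ratio of 4.42. The start site had no JUNB peak in either treatment. The strongest JUNB of the window, 67 reads in vehicle (51.9 to 85.1) and 119 with TGFB1 (98.6 to 142), lay 65.1 kb downstream of the start and nearer to another gene. Its fold enrichment went the other way, from 15.1 in vehicle (rank 1100 of 38514) to 11.1 with TGFB1 (rank 2718 of 64407). TOMM40, just downstream, held acetylation of 193 and 199 reads with the window's SMAD2/3 peak on it (44891268 to 44891565; 18 reads, fold 4.91, rank 6555). The window's MITF peak, the only one called in both treatments at the 7 genes, lay near the same gene with 12 reads in vehicle and 11 with TGFB1 (ranks 3452 and 4126).

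CD47, the phagocyte checkpoint, had a strongly acetylated start site that none of the 4 factors marked in either treatment. Its factor peaks lay at a distance. About 40 kb upstream, nearer to IFT57, JUNB had 25 reads in vehicle and 65 with TGFB1 (fold 15.2; chromosome 3, 108131205 to 108131483), with TGFB1-only ATF3 of 22 reads. At the opposite end of the window, 97.5 kb downstream of the start, SMAD2/3 (14 reads, fold 6.73, rank 5164; 107993357 to 107993607), ATF3 (18 reads) and JUNB (25 reads) were all TGFB1-only, on H3K27ac of both treatments (15 reads in vehicle; the summit of the TGFB1 interval lay outside the window). The 1 MITF peak of CD47 was vehicle-only, with 9 reads (fold 6.64, rank 3298; 108032002 to 108032191), and a JUNB peak of 17 reads was called there with TGFB1 alone.

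MITF had 2 peaks at these genes in each treatment. Any MITF peak was present at 2 of 7 genes in vehicle (39.9% of all genes) and 2 of 7 with TGFB1 (38.4%), and vehicle-only and TGFB1-only peaks at 1 each (24% and 21.1%). No start site of the 7 (for PDCD1LG2, neither gene end) had MITF within 1 kb, which 13.1% of genes had in vehicle and 11.9% with TGFB1. The depths of the pair were alike, with a ratio of 1.00.

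ATF3 and JUNB were more numerous at these genes with TGFB1, as they were at genes in general. ATF3 had 14 peaks in vehicle and 40 with TGFB1, of which 33 were TGFB1-only and 7 shared, and 7 of the vehicle peaks were vehicle-only. Every one of the 7 genes had ATF3 in each treatment (76.9% and 92.1% of all genes), all 7 had a TGFB1-only peak (88.9%) and 6 a vehicle-only peak (56.8%). JUNB had 29 and 59 peaks, 36 of them TGFB1-only and 5 vehicle-only. All 7 genes had JUNB in each treatment (82.3% and 91.1%), all 7 had a TGFB1-only peak (85.4%) and 4 a vehicle-only peak (51.6%). These shares of genes leave little room above the background. In numbers of peaks, the median over the 7 genes was 9 JUNB peaks with TGFB1 against 4 over all genes, and 4 against 2 in vehicle. For ATF3 it was 6 against 4 with TGFB1 and 2 against 2 in vehicle. In these medians CD274 and PDCD1LG2 each kept their shared peaks, and window length was not matched to all genes.

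At start sites the AP-1 factors were split among the genes. ATF3 lay within 1 kb of the start (for PDCD1LG2, of either gene end) of 0 genes in vehicle (9.82% of genes). With TGFB1 it lay there at 4 (24.4%): CD274, PDCD1LG2, PVR and NECTIN2. JUNB lay there at CD274, PDCD1LG2 and PVR in vehicle (16.5%) and at CD276 and NT5E as well with TGFB1 (33.4%). The shares of genes are for start sites alone. ATF3 and JUNB of the TGFB1 libraries often coincided: 28 of 59 JUNB peaks (47.5%) overlapped ATF3, against 37.5% of the whole JUNB list, and 27 of 40 ATF3 peaks (67.5%) overlapped JUNB, against 38.5% of the whole ATF3 list. Merged across SMAD2/3, MITF, ATF3 and JUNB, the peaks formed 88 sites, of which 51 came from a single list, 23 of those from JUNB with TGFB1, and 20 from 3 or more lists.

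Depth moved with treatment for both AP-1 factors, and its part in these counts was not tested. Divided by the depth ratio of 4.42, the summit reads of the 33 TGFB1-only ATF3 peaks ran from 1.59 to 17.0, and 6 of 33 reached the median of 8 reads of the vehicle list, whose lowest peak had 4. For JUNB, 9 of 36 reached the vehicle median of 19 reads after division by 1.40. The TGFB1-only JUNB peaks were also the weaker ones, with a median fold enrichment of 4.43 and 20 reads, against 9.61 and 50 reads for shared peaks. For SMAD2/3 the depths differed by a ratio of 1.09, and the scaled reads of the 11 peaks (7.36 to 29.5) lay below the vehicle list's median of 37, whose lowest peak had 8. That scaling leaves out fragment extension, with shortest peaks of 311 bp in vehicle and 183 bp with TGFB1, so these reads are not directly comparable. With JUNB lists of equal length, TGFB1-only peaks numbered 14 and vehicle-only peaks 8.

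Beyond the 7 genes, a list of 26 other immune ligands and adenosine-pathway genes had SMAD2/3 about as often as genes in general. A TGFB1-only SMAD2/3 peak lay at 11 of 26 (46.9% of all genes), and TGFB1 itself was the 1 gene with a vehicle peak. The strongest was at ADA, the deaminase that removes adenosine, with 70 reads (fold 18.1, rank 168), at 41.5 kb outside the gene, and the TGFB1 gene followed with 39 reads (fold 12.8) at a peak 6.50 kb outside it, inside CCDC97. ADORA2B, an adenosine receptor, had 35 reads (fold 7.06), and LGALS3 (galectin-3), TNFSF4 (OX40 ligand) and CEACAM1 had 13 to 17. TGFB1-only peaks lay at 16 of 26 for H3K27ac (55.4% of all genes), 6 for MITF (21.1%), 22 for ATF3 (88.9%) and 22 for JUNB (85.4%). Vehicle-only peaks lay at 15 (52.7%), 3 (24%), 12 (56.8%) and 13 (51.6%).

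A second list held 10 genes of interferon-gamma signalling, which is known to induce CD274, and the CMTM proteins that stabilise PD-L1. TGFB1-only SMAD2/3 peaks lay at 7 of 10 (46.9% of all genes): STAT3 (32 reads, fold 7.04, inside CAVIN1), IFNGR2 (19 reads, fold 8.97), JAK1 (22 reads), IRF1 (16 reads), JAK2 (23 reads), IRF2 (15 reads) and CMTM4 (12 reads, where CMTM4 and CMTM3 overlap). None of the 10 had SMAD2/3 in vehicle. TGFB1-only peaks lay at 10 of 10 for ATF3 (88.9% of all genes), 10 for JUNB (85.4%), 8 for H3K27ac (55.4%) and 3 for MITF (21.1%). Vehicle-only peaks lay at 6 for ATF3 (56.8%), 4 for JUNB (51.6%), 6 for H3K27ac (52.7%) and 2 for MITF (24%).

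For each gene, the nearest others by numbers of peaks in all 10 lists were picked from the protein-coding genes whose windows overlapped no member's window. Some gene is always nearest, and no reference distance was computed, so the distances do not show whether any likeness was unusual. Likeness was the Euclidean distance between peak numbers, as log2 of 1 plus the count, over the 10 lists. CD47 was closest to any other gene, RALB at a distance of 0.27, followed by CD276 with NEURL1 at 0.48, NT5E with ERLN at 0.49 and PFKP at 0.51, and PDCD1LG2 with CTSC at 0.51. NECTIN2 was nearest to MAN1B1 at 0.59, PVR to CAMK1D at 0.60 and CD274 to GIPC2 at 0.65. Like NT5E, ERLN had 5 SMAD2/3 peaks with TGFB1 and none in vehicle, counts that were part of the measure. The measure describes counts of peaks and nothing of function.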

How the data were processed

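The files analysed were 10 deposited peak lists, 1 per antibody and treatment. Per the submitters' processing notes, the authors used Bowtie and MACS2 (version 2.0) with GRCh38. The control for each list, filters and duplicate handling are not given in the sources used here. The fold enrichment ratio, the −log10 p and −log10 q and the summit position of each peak are the authors' own, as deposited, and were used only within their list. The deposited score column was not used. Every list ended near a q of 0.05.

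Peaks overlapped when they shared 1 bp. The reads at each summit were solved from its fold enrichment and −log10 p with a pseudocount of 1 read. In each list at least 99.98% of them were whole numbers to within 0.01. Depth is an estimate from the lowest background, with the shortest peak as fragment length and an assumed genome of 2.7 Gb. Intervals of reads are exact Poisson and those of shares Wilson, at 95%. They cover counting error only.

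Backgrounds were 19974 protein-coding genes on chromosomes 1 to 22 and X, and 15812 genes with a RefSeq promoter entry. The gene table has no strand, so PDCD1LG2 is described by its gene ends. The text names the 7 genes, any gene holding the summit of a described peak, up to 6 genes of each further list with the strongest SMAD2/3 peaks (and CMTM4, named after its values were seen, to complete a count), and the 2 genes nearest in peak numbers. The members and lists were chosen with earlier results of these data known. Overlap and read recovery were tested on simulated data. Python 3.11.15, pandas 2.3.3, numpy 2.4.6, scipy 1.17.1 and matplotlib 3.10.9 were used. The alternatives tried were a window of 10 kb, a stricter list (−log10 q of 5 or more), a reciprocal overlap of 50%, and lists cut to equal lengths.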

Additional observations from a re-analysis of the deposited data

How the results depend on the processing

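Each of 15 counts was repeated under 4 alternatives, and a count is given here where it moved by more than 1.5 times. With a −log10 q of at least 5, TGFB1-only H3K27ac peaks went from 11 to 3 and vehicle-only ones from 9 to 5, TGFB1-only MITF from 1 to 0, vehicle-only ATF3 from 7 to 2 and vehicle-only JUNB from 5 to 2. With a reciprocal overlap of 50%, H3K27ac gave 20 TGFB1-only and 20 vehicle-only peaks and JUNB 14 vehicle-only peaks, and the SMAD2/3 peaks on H3K27ac went from 8 to 0 and those on JUNB from 6 to 2 of 11. With a window of 10 kb, 6 TGFB1-only SMAD2/3 peaks lay at 3 genes, and of these 6 peaks 5 lay on H3K27ac, 3 on ATF3 and 3 on JUNB. No share of all genes is given beside the counts for this window. That window also left 4 TGFB1-only and 4 vehicle-only H3K27ac peaks, 0 vehicle-only MITF peaks, 17 TGFB1-only and 2 vehicle-only ATF3 peaks, and 16 TGFB1-only JUNB peaks. With lists cut to equal lengths, TGFB1-only SMAD2/3 peaks went to 0 at 0 genes, since the strongest ranked 1370 and the list was cut at 1247. Equal lengths also gave 14 TGFB1-only and 8 vehicle-only JUNB peaks. For the overlaps, all 11 SMAD2/3 peaks were kept and the lists set against them were cut. Then 3, 0 and 2 of the 11 lay on H3K27ac, ATF3 and JUNB. No paired analysis was possible because each antibody and treatment had 1 library. Differences in depth, above all the ratio of 4.42 for ATF3, limit what a missing vehicle peak shows.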
